A study of Mus musculus with 6 samples.

Results

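The interferon response genes were followed as 37 named genes, each found by its name in the gene tables of all 6 libraries, out of 41457 genes listed there. RNA of CD4-CD8- double negative (DN) thymocytes was sequenced from Nc1Bio mice and from BirA control mice, with 3 libraries each. Nc1Bio cells carried 1 BAC transgene copy that spans the entire mouse Nfatc1 locus and so made extra NFATc1, a transcription factor of the NFAT family. BirA cells had normal NFATc1 levels and are labelled WT. By the study's methods the transgene adds a biotin-tagged NFATc1/A, the transgenic mice carry the BirA biotin ligase as well, and the mice were 4 to 6 weeks old, of C57/B6 background and matched for sex and age. DN cells were what was left after anti-CD4 and anti-CD8 magnetic beads had removed other thymocytes, so every CD4- CD8- cell of the thymus could be present. Nothing in the labels ties the libraries of a group to separate mice, and p-values then measure the spread between these libraries only. In BirA that spread was not technical alone, since the Y-linked gene Ddx3y had 1027, 1249 and 0 unique reads in replicates 1 to 3. Between the other libraries it may be technical in part, yet it went beyond counting noise. The chi-square per degree of freedom over gene counts, about 1 for counting noise alone, was 27.1 to 78.7 among the Nc1Bio libraries. It was 62.6 between BirA replicates 1 and 2.

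Interferons are signalling proteins that cells release on viral infection. Type I and type III interferons act through the kinases JAK1 and TYK2 on STAT2 and IRF9, parts of a complex that binds an interferon-stimulated response element in front of target genes, while interferon gamma acts through JAK1 and JAK2, and its target genes often carry a GAS element. In the thymus, interferon made by epithelial and other cells keeps a part of these genes on without infection.

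No interferon response gene passed the test between Nc1Bio and BirA. The filter on low counts kept 35 of the 37 genes, and 0 of 35 reached an adjusted p under 0.05 in edgeR's quasi-likelihood test with Benjamini-Hochberg adjustment, where 0.00818% of the 12224 tested genes did (1 gene, Nfatc1). The genes spread around no change, with 13 above and 22 below zero and a median log2 fold change of -0.03, against -0.003 over all tested genes. At an unadjusted p under 0.05, 2 of 35 were higher in Nc1Bio (Gbp3 and Ifi27), beside 4.31% of all tested genes, and 1 of 35 was lower (Xaf1), beside 7.66% of all tested genes. DESeq2 called 1 of 35 higher, Ifi27 (adjusted p = 0.018), beside 0.45% of all tested genes, and 0 of 35 lower, beside 2.23%. With limma-voom 0 of 35 passed an adjusted p under 0.05. At an unadjusted one 3 of 35 were higher (Bst2, Gbp3 and Ifi27), beside 4.52% of all tested genes, and 1 of 35 was lower (Usp18), beside 6.95%. Single libraries differed widely. The highest of the 6 libraries was at least 2 times the lowest for 18 of 35 genes, beside 33.0% of all tested genes. A p that misses the threshold does not show that the groups were alike, and the median standard error of a log2 fold change was 0.27 for these genes and 0.18 for all tested genes.

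Nfatc1, the gene on the transgene, stood at 573, 597 and 551 CPM (counts scaled to 1000000 reads) in Nc1Bio and at 152, 128 and 96.8 CPM in BirA (log2 fold change 2.19, SE 0.16, edgeR adjusted p = 0.014). Unique gene reads per library ran from 11845952 to 15393763. DN genes were abundant in every library (the summed level of 12 such genes was 6621 to 7975 CPM in Nc1Bio and 5712 to 6655 CPM in BirA), and the 3 co-receptor genes Cd4, Cd8a and Cd8b1 summed to 21.1 to 41.6 CPM in Nc1Bio and 22.2 to 52.6 CPM in BirA. Other cell types were present. B cell genes (8 listed, 7 lower at an unadjusted p under 0.05) summed to 293 to 1570 CPM in Nc1Bio and 1653 to 2058 CPM in BirA, NK and innate lymphoid genes (9 listed) to 335 to 491 CPM in Nc1Bio and 720 to 922 CPM in BirA, and gamma-delta T cell genes (10 listed) to 1204 to 1572 CPM in Nc1Bio and 1865 to 2170 CPM in BirA. Of those tested, 4 of 7 NK and innate lymphoid genes and 7 of 10 gamma-delta T cell genes were also lower at that threshold, beside the 7.66% of all tested genes. Most of the B cell sum was 1 gene, Ighm, with 236 to 1479 CPM in Nc1Bio and 1516 to 1686 CPM in BirA. Ighm was the B cell gene that did not reach that threshold (edgeR unadjusted p = 0.248). Most of the NK and innate lymphoid sum was Gzma, with 274 to 468 CPM in Nc1Bio and 554 to 654 CPM in BirA. Every gene of these 3 lists had a read in at least 1 library. None passed the adjusted test in edgeR, while DESeq2 called 4 B cell, 2 NK and innate lymphoid and 4 gamma-delta T cell genes lower in Nc1Bio at an adjusted p under 0.05, beside 2.23% of all tested genes. Among the 12 DN genes, DESeq2 called 2 higher, beside 0.45% of all tested genes. By edgeR's unadjusted p under 0.05, 4 of the 12 were higher, beside 4.31%. All 12 had log2 fold changes above zero (median 0.31). The part of these cell types in the values of the interferon genes was not tested. In bulk RNA, fewer cells of a type and less RNA per cell cannot be told apart. Y-linked genes were near zero in BirA replicate 3. Ddx3y, Kdm5d and Uty had 0 CPM there and Eif2s3y 0.28 CPM, against 28.5 to 80.0 CPM in the other 5 libraries. Xist had 11 unique reads in BirA replicate 3 (0.76 CPM) and 0 in the other 5. The methods describe mice matched for sex, and the labels give no sex. This library was also the lowest for 17 of the 35 tested interferon genes, and the part of sex in that was not tested.

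The promoters were searched for the sequences through which interferons are known to act. RefSeq promoters (build GRCm38.p6, 250 bases before to 50 bases after the start) were at hand for 28 of the 37 genes. An IRF-type repeat, taken as GAAA, any 2 bases and GAAA again on either strand, lay in 16 of these 28 genes, against 3.99% of all 27025 genes with a promoter in the table (3.44% of 32851 promoters). A GAS element, TTCNNNGAA, lay in 8 of the 28, against 9.55% of all genes. No entry was found for Rtp4, Mx1, Mx2, Zbp1, Oas2, Usp18, Parp14, Ifi27 and Dhx58. Such a match is a description of letters, not of bound sites. The windows below belong to genes whose levels are described in detail, each with 15 bases on either side of the repeats, 5′ to 3′ along the gene, and with the repeats in capitals:
Isg15, chr4:156200860-156200911, minus strand: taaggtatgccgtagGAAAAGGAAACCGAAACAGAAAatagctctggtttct
Ifit1, chr19:34640770-34640828, plus strand: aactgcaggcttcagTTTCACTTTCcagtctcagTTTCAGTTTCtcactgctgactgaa
Ifit3, chr19:34583358-34583431, plus strand: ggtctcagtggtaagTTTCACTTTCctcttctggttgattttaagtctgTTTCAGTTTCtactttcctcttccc
Oas3, chr5:120777710-120777749, minus strand: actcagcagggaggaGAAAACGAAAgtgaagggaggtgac
Gbp3, chr3:142559984-142560029, plus strand: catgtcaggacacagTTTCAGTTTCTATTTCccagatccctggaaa
Rsad2, chr12:26456548-26456587, minus strand: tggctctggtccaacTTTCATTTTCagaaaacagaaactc

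Isg15 held 3 overlapping repeats, the first of them 78 bases before the start. Ifit3b, the neighbouring copy of Ifit3, had the identical window at chr19:34607754-34607827, and the files' unique reads for this pair were only 51.5% of the total reads for Ifit3 and 60.4% for Ifit3b. Their counts are therefore uncertain, since reads that fit both copies were left out. Repeat-bearing promoters were found in genes of several library patterns: 6 of the 13 genes highest in BirA replicate 2 held a repeat, and 10 of the 15 genes highest in another library did.

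The levels spanned a wide range when scaled by exon length. Bst2, which encodes tetherin, a membrane protein that holds budding viruses at the cell surface, had the highest mean of 121 CPM per kb of exon, from unique exon reads. It was followed by Isg20, an exonuclease (86.3), Ifi27, a small membrane protein (46.2), Isg15, a ubiquitin-like modifier (41.3), and Rsad2, which encodes viperin (33.1). At the low end, Oas2 averaged 0.45, Ifi44 0.36, Mx2 0.14 and Mx1 0.05 CPM per kb of exon. Both Mx genes, named for a family of dynamin-like antiviral GTPases, fell under the filter on low counts. Mx1 had 0, 4 and 0 unique reads in Nc1Bio and 3, 6 and 2 in BirA, and Mx2 had 26, 8 and 0 in Nc1Bio and 1, 10 and 4 in BirA.

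**Figure D1:**
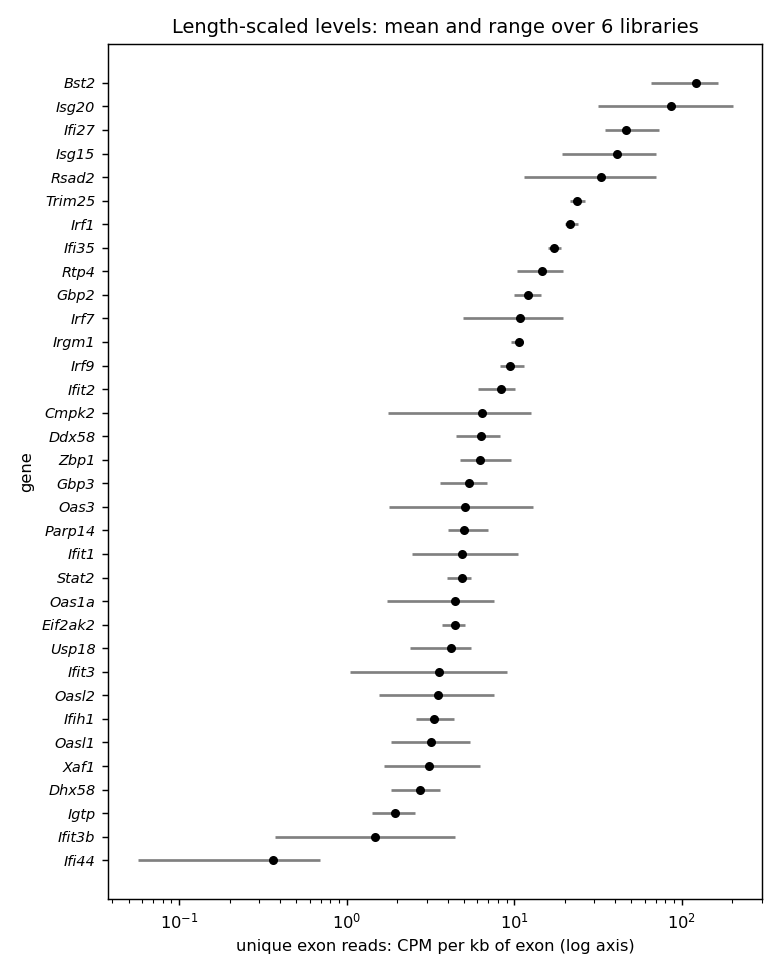
Mean level (points) and range over the 6 libraries (lines) of 34 interferon response genes, in CPM of unique exon reads per kb of exon on a log axis. Bst2 has the highest mean at 121, while Oas2, Mx1 and Mx2 are not drawn since at least 1 library has no exon read.

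The transcription factors of the pathway had values below zero for all 4 genes, of which Irf7 and Irf1 turned above it with 1 library left out, and none passed the test. STAT2 and IRF9 are parts of the complex that binds the response element, IRF7 amplifies the type I response, and IRF1 is induced early by interferon gamma. Stat2 had 26.3, 31.8 and 23.6 CPM in Nc1Bio and 33.4, 31.9 and 29.7 CPM in BirA (log2 fold change -0.22, SE 0.15, edgeR adjusted p = 0.598). Irf9 had 48.8, 53.0 and 48.5 CPM in Nc1Bio and 63.2, 54.7 and 45.4 CPM in BirA (log2 fold change -0.12, SE 0.13, adjusted p = 0.757). Irf1 had 84.2, 82.5 and 85.8 CPM in Nc1Bio and 95.4, 88.8 and 79.4 CPM in BirA (log2 fold change -0.06, SE 0.10, adjusted p = 0.830). In all 3 the groups overlapped, and the highest library was BirA replicate 1. That library also had the most RNA of dendritic cell genes, of which the 11 listed summed to 139 to 506 CPM in Nc1Bio and to 2205, 478 and 497 CPM in BirA. It was the highest library too for the sums of B cell genes (2058 CPM) and of NK and innate lymphoid genes (922 CPM). The part of these cells was not tested. Irf7 ranged much more widely, with 18.6, 39.7 and 48.6 CPM in Nc1Bio and 40.9, 73.5 and 22.6 CPM in BirA, and BirA replicate 2 was highest (log2 fold change -0.36, SE 0.46, adjusted p = 0.793). Without BirA replicate 2 its log2 fold change was 0.17.

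The sensors showed small differences. MDA5 (Ifih1), RIG-I (Ddx58) and LGP2 (Dhx58) recognise viral RNA in the cytosol, ZBP1 recognises Z-form nucleic acid, and TRIM25 is a ubiquitin ligase that acts on RIG-I signalling. Ifih1 had 32.1, 36.0 and 21.5 CPM in Nc1Bio and 27.9, 27.0 and 21.9 CPM in BirA (log2 fold change 0.23, SE 0.21, adjusted p = 0.702). Zbp1 had 18.1, 18.0 and 24.1 CPM in Nc1Bio and 23.3, 35.6 and 20.1 CPM in BirA (log2 fold change -0.40, SE 0.24, adjusted p = 0.551). Groups overlapped in both, and for Zbp1 it was again BirA replicate 2 that stood highest. Trim25, among the most abundant of the 37 by CPM, had 131.6, 154.4 and 125.2 CPM in Nc1Bio and 142.7, 138.0 and 134.3 CPM in BirA, a log2 fold change of -0.01 (SE 0.10, adjusted p = 0.973). Ddx58 and Dhx58 had log2 fold changes of -0.11 and -0.13.

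The OAS and IFIT families held 6 of the 8 genes for which BirA replicate 2 was at least 1.5 times the next library. OAS proteins make 2′-5′-linked oligoadenylates that switch on RNase L, OASL proteins are their relatives, PKR (Eif2ak2) halts translation on double-stranded RNA, and IFIT proteins bind foreign RNA ends. Oas3 had 12.7, 28.4 and 40.2 CPM in Nc1Bio and 31.0, 91.7 and 12.8 CPM in BirA (log2 fold change -0.74, SE 0.67, adjusted p = 0.695). Oas2 had 0.75, 3.41 and 0 CPM in Nc1Bio and 2.24, 6.53 and 0.42 CPM in BirA (log2 fold change -1.14, SE 1.29, adjusted p = 0.760). The groups overlapped in both, and 1 library, BirA replicate 2, was far above the rest. Without it the log2 fold change was 0.31 for Oas3 and 0.08 for Oas2. BirA replicate 2 was the highest library for 5 of the 6 genes of this group, all but Eif2ak2. Only 51.8% of the total reads of Oas1a were unique, and its level is uncertain.

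The 4 Ifit genes lie side by side on chromosome 19 within 99.3 kb (34550694 to 34650009, GRCm38), and all 4 were highest in BirA replicate 2. Ifit3 had 1.92, 4.78 and 5.09 CPM in Nc1Bio and 6.86, 16.3 and 3.06 CPM in BirA (log2 fold change -1.15, SE 0.63, adjusted p = 0.507). Ifit3b had 0.75, 1.52 and 4.70 CPM in Nc1Bio and 1.30, 8.96 and 1.18 CPM in BirA (log2 fold change -0.71, SE 0.95, adjusted p = 0.798). Ifit1 had 8.58, 10.01 and 17.0 CPM in Nc1Bio and 8.01, 28.1 and 6.60 CPM in BirA (log2 fold change -0.27, SE 0.56, adjusted p = 0.875). In each, BirA replicate 2 exceeded the next library, by 2.38 times for Ifit3, 1.91 times for Ifit3b and 1.66 times for Ifit1. The other BirA libraries lay among those of Nc1Bio for Ifit3b and below them for Ifit1, and for Ifit3 BirA replicate 1 lay above and BirA replicate 3 among them. Leaving BirA replicate 2 out turned the direction of Ifit3b to 0.90 and of Ifit1 to 0.70, and left Ifit3 at -0.33. Ifit2, in the same cluster, differed little between libraries (23.8 to 40.1 CPM).

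**Figure D2:**
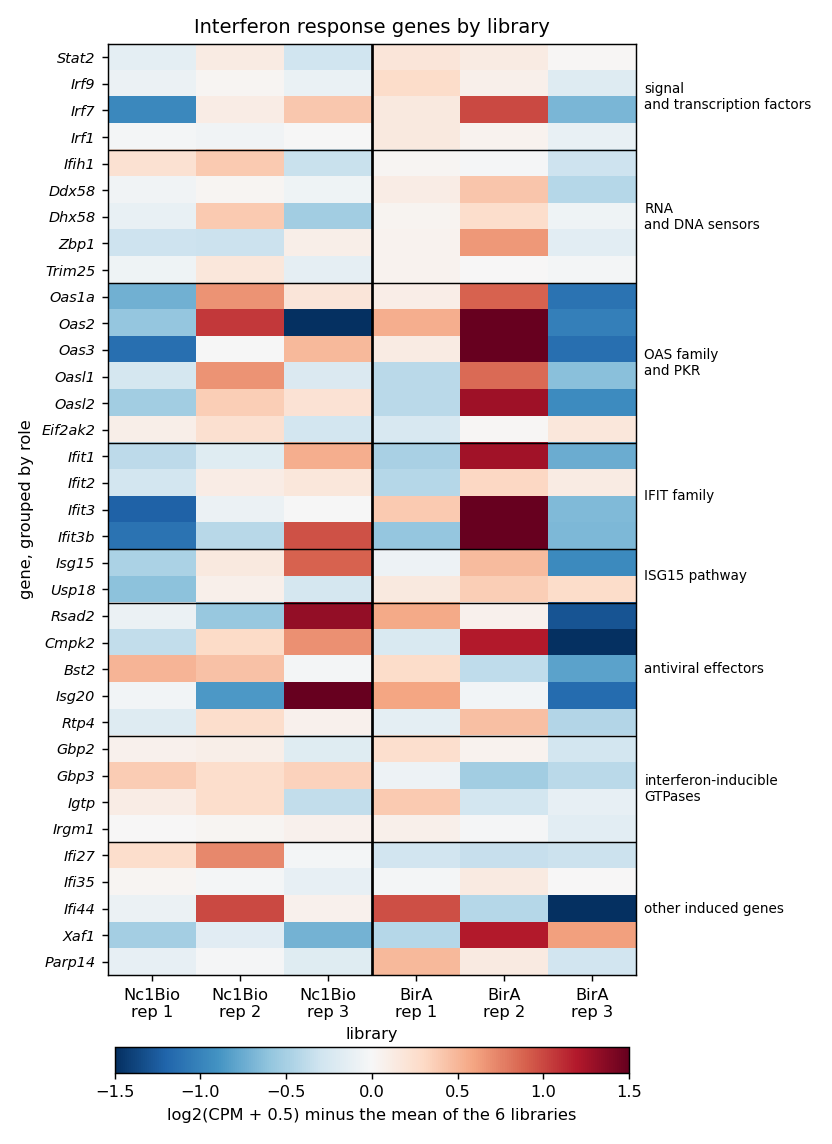
Each row is 1 of the 35 tested genes and each column 1 library, Nc1Bio to the left of the line and BirA to the right, coloured by log2(CPM + 0.5) minus the mean of the 6 libraries (scale limited to 1.5 either way). BirA replicate 2 is the highest library for 17 genes and BirA replicate 3 the lowest for 17.

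The ISG15 pathway genes differed from each other. ISG15 is attached to target proteins during the response, and USP18 removes it and also blocks the type I receptor. Usp18 was the only gene of the 35 with all Nc1Bio libraries below all BirA libraries, at 7.58, 12.5 and 9.79 CPM in Nc1Bio and 13.2, 15.5 and 14.4 CPM in BirA (log2 fold change -0.53, SE 0.23, adjusted p = 0.427), beside 9.98% of all tested genes. Only 52.7% of its total reads were unique, and its level is uncertain. Isg15 had 20.6, 31.9 and 53.4 CPM in Nc1Bio and 27.4, 40.2 and 14.7 CPM in BirA (log2 fold change 0.36, SE 0.42, adjusted p = 0.763), and its groups overlapped.

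The 5 tested antiviral effectors all had log2 fold changes above zero, from 0.06 to 0.57, and none passed the test. Only Bst2 stayed above zero with any 1 library left out (0.35 to 0.91), while Rsad2, Isg20, Cmpk2 and Rtp4 each fell below zero without at least 1 library. Bst2 had 148.9, 141.5 and 102.6 CPM in Nc1Bio and 126.6, 79.9 and 59.5 CPM in BirA (log2 fold change 0.56, SE 0.27, adjusted p = 0.455). BirA replicate 1 lay above Nc1Bio replicate 3, and the groups overlapped. Rsad2 had 114.7, 82.2 and 306.4 CPM in Nc1Bio and 181.9, 128.0 and 49.4 CPM in BirA (log2 fold change 0.49, SE 0.57, adjusted p = 0.766). Isg20 had 128.8, 72.8 and 376.5 CPM in Nc1Bio and 200.2, 129.3 and 59.2 CPM in BirA (log2 fold change 0.57, SE 0.62, adjusted p = 0.746). In both of these genes Nc1Bio replicate 3 was highest, BirA replicate 1 next and BirA replicate 3 lowest, and without Nc1Bio replicate 3 the log2 fold change was -0.28 for Rsad2 and -0.36 for Isg20. Cmpk2, a mitochondrial nucleotide kinase gene that lies 12.8 kb from Rsad2 on chromosome 12, did not follow it: it had 17.6, 28.1 and 37.1 CPM in Nc1Bio and 19.5, 52.6 and 7.36 CPM in BirA, with BirA replicate 2 highest.

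**Figure D3:**
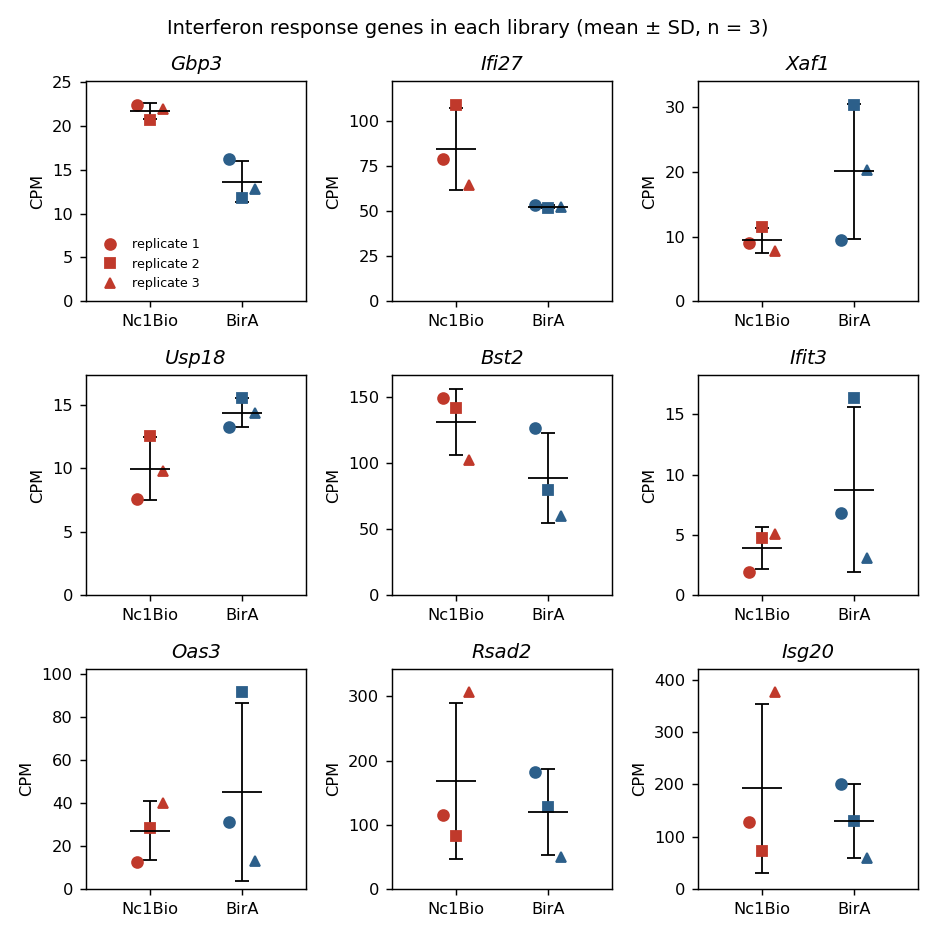
CPM of 9 interferon response genes in each library, Nc1Bio left and BirA right, with replicate symbols, the mean (bar) and SD (whiskers, n = 3 each). Gbp3 and Ifi27 have all Nc1Bio libraries above all BirA libraries, Usp18 has all below, and in Ifit3 and Oas3 BirA replicate 2 lies above every other library.

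Gbp3 and Ifi27 were the genes whose Nc1Bio libraries all lay above the BirA libraries, 2 of 35 beside 8.45% of all tested genes. Gbp3 encodes a guanylate-binding protein, one of the large GTPases that attack the vacuoles of intracellular pathogens. It had 22.4, 20.6 and 21.9 CPM in Nc1Bio and 16.2, 11.8 and 12.8 CPM in BirA, 1.59-fold higher in Nc1Bio (log2 fold change 0.67, SE 0.17, edgeR adjusted p = 0.248, DESeq2 adjusted p = 0.089). Leaving out any 1 library gave a log2 fold change of 0.58 to 0.82. The neighbouring Gbp2, within the same 78.0 kb of chromosome 3, had a log2 fold change of -0.03, and the immunity-related GTPases Irgm1 and Igtp had 0.06 and -0.002, though only 6.49% of the total reads of Igtp were unique.

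Ifi27 had 79.0, 108.9 and 64.5 CPM in Nc1Bio and 53.5, 51.4 and 52.4 CPM in BirA, 1.60-fold higher in Nc1Bio (log2 fold change 0.68, SE 0.18, edgeR adjusted p = 0.253). The BirA libraries were close together and the Nc1Bio libraries spread out above them. Leaving out any 1 library kept it above zero, at 0.45 to 0.84. Xaf1, whose product opposes the apoptosis inhibitor XIAP, had the lowest p of the genes below zero, with 8.995, 11.5 and 7.79 CPM in Nc1Bio and 9.53, 30.4 and 20.2 CPM in BirA (log2 fold change -1.09, SE 0.39, adjusted p = 0.369). BirA replicate 1 lay among the Nc1Bio libraries, and without BirA replicate 2 the log2 fold change was -0.65. Parp14, a mono-ADP-ribosyltransferase gene, had 42.9, 46.0 and 41.2 CPM in Nc1Bio and 65.7, 51.4 and 38.1 CPM in BirA (log2 fold change -0.25, SE 0.19, adjusted p = 0.621). Ifi44 was near the detection limit, at 1.75, 4.25 and 2.01 CPM in Nc1Bio and 4.19, 1.28 and 0.35 CPM in BirA (log2 fold change 0.46, SE 0.82, adjusted p = 0.853).

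**Figure D4:**
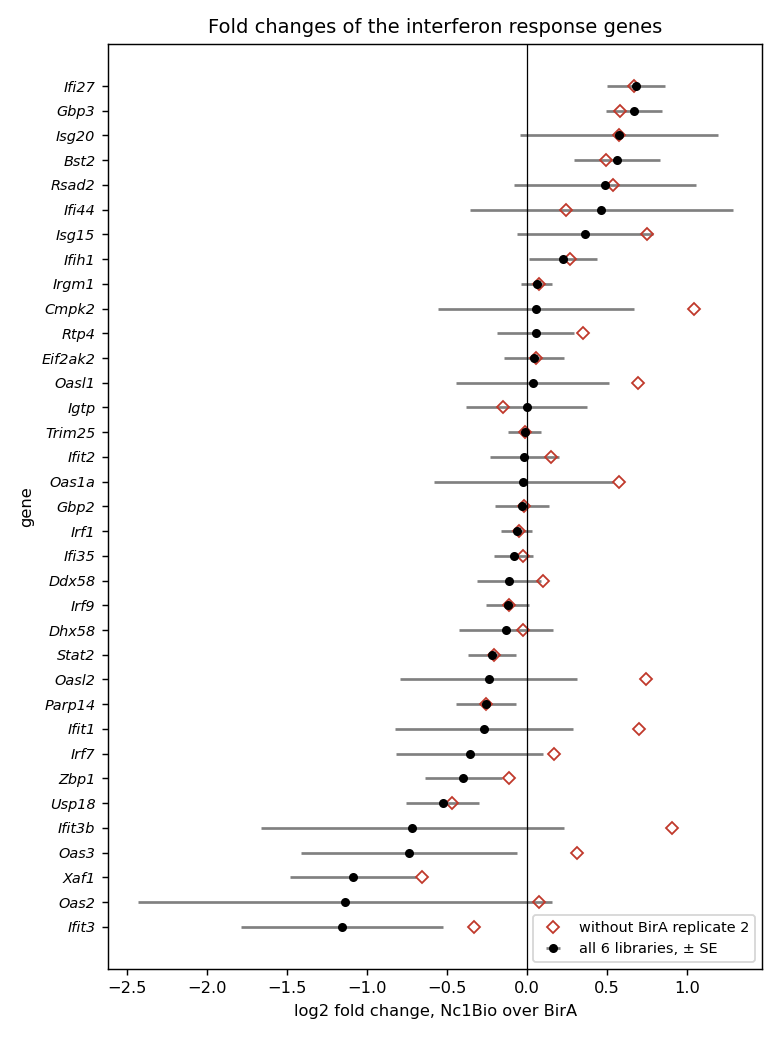
Log2 fold change of Nc1Bio over BirA for the 35 tested genes, from all 6 libraries (points, with SE) and without BirA replicate 2 (open diamonds). Genes below zero numbered 22 with all libraries and 13 without BirA replicate 2, and none passed the adjusted test in either fit.

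The spread had an order that many of the genes shared. BirA replicate 2 was the highest library for 17 of 35 genes, beside 16.6% of all tested genes, and it was at least 1.5 times the next library for 8 of 35, beside 1.87% of all tested genes. BirA replicate 3 was the lowest for 17 of 35, beside 13.1%. The median deviation of the 35 genes from their 6-library mean was 0.27 in BirA replicate 2 and -0.41 in BirA replicate 3 on the log2 scale, while over all tested genes the library medians ran from -0.007 to 0.015. The 2 extreme libraries were thus both controls. With all libraries 13 genes lay above zero and 22 below, without BirA replicate 2 the counts were 22 and 13 (median log2 fold change 0.15), and without BirA replicate 3 they were 10 and 25 (median -0.20). The median SD of log2 CPM within groups was 0.34 for these genes and 0.22 for all tested genes, at similar levels (median of the mean CPM 29.4 and 27.1).

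Granulocyte genes had the same highest library. Of 9 granulocyte genes, 7 were highest in BirA replicate 2, all but Mpo and Elane, and their sum was 383, 2845 and 5521 CPM in Nc1Bio and 488, 9099 and 466 CPM in BirA. S100a8, a granulocyte calcium-binding protein gene, had 95.7, 749 and 1415 CPM in Nc1Bio and 134.8, 2285 and 102.5 CPM in BirA. BirA replicate 2 was highest and Nc1Bio replicate 3 next both for these granulocyte genes and for 7 of the 35 interferon genes, beside 3.48% of all tested genes. Of 9 tested macrophage genes, 2 were highest in BirA replicate 2 and 5 were lowest in BirA replicate 3. The sum of the 10 listed was 287, 304 and 668 CPM in Nc1Bio and 691, 1120 and 138 CPM in BirA. Most of that sum was 1 gene, Lyz2, with 205, 261 and 593 CPM in Nc1Bio and 486, 982 and 83.5 CPM in BirA. Its highest and lowest libraries, BirA replicates 2 and 3, thus set those of the sum. Apart from Lyz2 and Adgre1, the tested macrophage genes were highest in BirA replicate 1. The part of these cells in the values of the interferon genes was not tested. Rsad2 and Isg20 had instead the 2 highest libraries of the erythroid genes, whose sum over 7 genes was 40772, 17666 and 97663 CPM in Nc1Bio and 66151, 30799 and 20079 CPM in BirA. That order was not tested either.

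**Figure D5:**
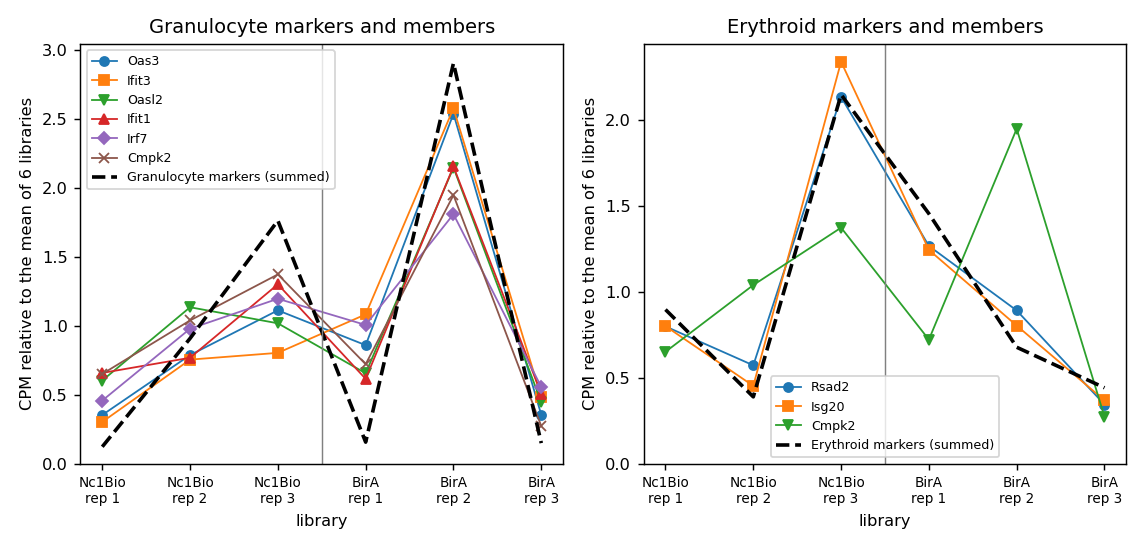
CPM relative to the mean of the 6 libraries, Nc1Bio left of the grey line and BirA right. Left, 6 of the 17 genes highest in BirA replicate 2, chosen with their values known, and the summed granulocyte markers (dashed), highest there too. Right, Rsad2 and Isg20 and the summed erythroid markers (dashed) peak in Nc1Bio replicate 3, while Cmpk2 does not.

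The rest of the pathway had no gene that passed the adjusted test in edgeR. Of 20 interferon genes, 19 had no unique read in any library and Ifng, the gene of interferon gamma, was at or under 0.87 CPM. Interferon transcripts other than Ifng thus had no unique read at this depth. Reads that fit more than 1 gene copy were left out of these counts, and total reads of these genes are not given here. Among 9 receptor and kinase genes 8 were tested, and by the same unadjusted threshold of 0.05 there were 4 lower and 0 higher, where 7.66% of all tested genes were lower and 4.31% higher, shares that stand beside the counts of the other pathway lists too. Jak2 had 46.6, 51.6 and 59.2 CPM in Nc1Bio and 88.4, 80.0 and 59.8 CPM in BirA (log2 fold change -0.54, SE 0.16, edgeR adjusted p = 0.300), and Jak1 had 294.8, 332.3 and 302.4 CPM in Nc1Bio and 431.8, 431.7 and 344.3 CPM in BirA (log2 fold change -0.38, SE 0.12, adjusted p = 0.303). The receptor chains Ifngr2 and Ifnar1 had log2 fold changes of -0.47 and -0.25. For Jak1, Jak2, Ifngr2 and Ifnar1 all Nc1Bio libraries lay below all BirA libraries, as for 9.98% of all tested genes. The groups overlapped for the other tested genes of this list, among them the kinase gene Tyk2 (log2 fold change 0.06).

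Genes that induce interferon had lower values in Nc1Bio for 10 of 12 tested, 4 of them at an unadjusted p under 0.05. Tlr9, a receptor for DNA used by B cells and dendritic cells, had 2.67, 1.67 and 0.39 CPM in Nc1Bio and 13.1, 5.70 and 3.61 CPM in BirA (log2 fold change -2.24, SE 0.73, edgeR adjusted p = 0.325, DESeq2 adjusted p = 0.036). B cell and dendritic cell genes had the same direction (median log2 fold changes of -1.72 and -1.42). The part of these cells in the level of Tlr9 was not tested. Tmem173, which encodes STING, Ikbke and Ticam1 had log2 fold changes of -0.44, -0.46 and -0.49. All 8 inhibitors of the response were below zero, with 2 at an unadjusted p under 0.05, Irf2 (-0.41) and Socs3 (-0.73). Of 44 further induced genes tested, 3 had an unadjusted p under 0.05 above zero and 8 below it, and the list's median log2 fold change was -0.10. Sp100, a nuclear body protein gene, had 86.8, 80.7 and 93.8 CPM in Nc1Bio and 138.3, 130.2 and 108.5 CPM in BirA (log2 fold change -0.53, SE 0.12, edgeR adjusted p = 0.187, DESeq2 adjusted p = 0.010), and Slfn5, of the Schlafen family, had 9.49, 7.43 and 6.63 CPM in Nc1Bio and 28.1, 26.1 and 8.27 CPM in BirA (log2 fold change -1.41, SE 0.43, edgeR adjusted p = 0.303, DESeq2 adjusted p = 0.029). All Nc1Bio libraries lay below all BirA libraries for Sp100, while for Slfn5 BirA replicate 3 lay below Nc1Bio replicate 1.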

How the data were processed

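Libraries were made from poly(A) RNA and sequenced as single reads, and by the study's methods the reads were trimmed and aligned with STAR to GRCm38. The deposited tables hold counts per gene, whole numbers given separately for genes, exons and introns and for unique and total reads. The layout is not that of the counter named in the methods, so which program made the tables is not known from the sources used here. Unique gene reads were used. Their share of total gene reads was 64.1 to 76.0%, so genes with close copies lose reads. CPM values use TMM factors. Groups were compared with edgeR 4.0.16 (quasi-likelihood test, filterByExpr, 12224 of 41457 genes, Benjamini-Hochberg over all tested genes), checked on simulated data, with DESeq2 1.42.0 and limma-voom 3.58.1 as alternatives beside other scalings, filters, count columns and each library left out. Per-length levels used unique exon reads per kb of exon. The genes and lists were chosen with earlier results of these data known. Named genes were those of lowest p (up to 15), highest mean CPM (5) and widest range between libraries (5), up to 4 of lowest p in each pathway list, and others named for a neighbour or family, chosen after their values were seen. A further pathway gene is not reported here.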

Additional observations from a re-analysis of the deposited data

How the results depend on the processing

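No interferon response gene was called higher or lower under any of the 14 alternatives except Ifi27, which DESeq2 called (1 gene higher); at the study's threshold DESeq2 called 0. Over all genes, edgeR called 1 higher and 0 lower, against 11 and 145 without a filter on low counts, 55 and 273 with DESeq2 and 13 and 155 with DESeq2 at the study's threshold. Leaving out 1 library gave 0 to 1 higher and 0 to 1 lower over all genes. The median log2 fold change of the interferon genes ran from -0.20 without BirA replicate 3 to 0.15 without BirA replicate 2, and its sign was that of all 6 libraries under the other alternatives.

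The sign of 13 genes held under every alternative, among them Gbp3, Ifi27, Xaf1, Usp18 and Bst2, and that of 22 turned under at least 1, the cause not tested. With 1 library left out, log2 fold changes ran from -0.68 to 0.17 for Irf7, -0.13 to 0.00047 for Irf1, -0.31 to 0.10 for Ddx58, -0.42 to 0.076 for Dhx58, -0.11 to 0.050 for Trim25, -0.41 to 0.57 for Oas1a, -3.02 to 0.075 for Oas2. They ran from -1.18 to 0.31 for Oas3, -0.36 to 0.69 for Oasl1, -0.61 to 0.74 for Oasl2, -0.071 to 0.18 for Eif2ak2, -0.62 to 0.70 for Ifit1, -0.21 to 0.15 for Ifit2, -1.74 to 0.90 for Ifit3b. For the others they ran from -0.062 to 0.75 for Isg15, -0.28 to 0.92 for Rsad2, -0.39 to 1.04 for Cmpk2, -0.36 to 1.03 for Isg20, -0.12 to 0.35 for Rtp4, -0.16 to 0.10 for Gbp2, -0.16 to 0.25 for Igtp, -0.039 to 1.69 for Ifi44. Other settings turned Oas1a (0.10 with limma-voom), Oasl2 (0.029 with limma-voom, against -0.24) and Igtp (0.0055 without a filter and 0.017 with limma-voom).

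Whether replicate numbers pair the libraries could not be settled. The deviations of same-numbered libraries correlated at 0.33, 0.12 and -0.10 (r across genes), and those of other-numbered libraries at -0.39 to 0.25. Number 1 thus gave the highest value of all, while numbers 2 and 3 lay within the range of the other-numbered pairs. A fit with the number as a replicate block called 0 interferon genes, and 1 gene higher and 1 lower over all genes, and gave a median of -0.02 for the interferon genes, with Oas1a at 0.076, Oasl2 at 0.030, Ifit2 at 0.0024 and Igtp at 0.0032. The direction of many of these genes hung on 1 library, BirA replicate 2 for some and Nc1Bio replicate 3 or another for others. With 3 libraries a group, small common shifts could not be resolved.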
